A study of Homo sapiens with 4 samples.

Results

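The nuclear genes for the subunits of respiratory complex I were followed across heavy and light polysomes of the human colorectal carcinoma cell line HCT116. Members were the table's rows whose symbol is NDUF followed by A, B, C, S or V and a number, plus NDUFAB1. This gave 38 of 26364 gene symbols. The rule uses names only. A polysome is an mRNA under translation by several ribosomes at once, and cytoplasmic extract was sorted on sucrose gradients by how many an mRNA carries. The 4 libraries were wild type heavy, wild type light, Dicer1 knockout heavy and Dicer1 knockout light, with 1 library per group. Heavy stands for 10 ribosomes or more and light for 9 or fewer. The labels give no treatment, no clone and no site of the Dicer1 alteration. The name labelled knockout is used for that genotype, because DICER1 mRNA was higher in both of its libraries (925 counts heavy, 889 light) than in the wild type ones (500 heavy, 547 light) and because reads summed along a gene say nothing of the working state of its enzyme.

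Complex I, or NADH:ubiquinone oxidoreductase, is the entry point of electrons from NADH into the mitochondrial respiratory chain. It is an L-shaped assembly in the inner mitochondrial membrane. Its matrix arm carries the flavin and the iron-sulfur clusters that move electrons to ubiquinone, and its membrane arm pumps protons. The core subunits do the chemistry and have bacterial counterparts, and the accessory subunits surround them. The 7 core subunits of the membrane arm are encoded in mitochondrial DNA. The deposited counts hold no row for them under the symbols looked for, so they are not analysed here. The nuclear subunits are made on cytosolic ribosomes and imported, so their mRNAs can be followed in cytoplasmic polysomes. NDUFA4 falls under the naming rule but is known as a subunit of complex IV. The main counts of members called light and heavy are also given without it. Other counts and medians over the members include it.

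Library totals ran from 17457116 to 20933675 counts, and each member had at least 186 counts in each library. Levels are given as CPM, counts scaled to a common library size with TMM, which equalises libraries over most genes. In wild type and labelled knockout libraries alike, 7 of 7 epithelial markers had at least 50 counts in each library. Of 15 stromal, endothelial and blood markers, COL1A1 and CD68 did, and CD3E, DCN, LUM and PTPRC were at 0 in each. The sums of the 15 were 1034 (heavy) and 531 counts (light) for wild type cells and 1222 and 520 for the labelled knockout, against 181556 and 55521, and 192803 and 72019, for the epithelial markers. Their part in the results below was not tested.

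The members range in coding length from 177 nucleotides for NDUFB1 to 2184 for NDUFS1, and the position of an mRNA in the gradient followed this length. The complete coding sequences of the members most enriched in light polysomes are shown because they are short enough to be read whole. They come from the GENCODE release 44 reference transcripts (GRCh38), run 5′ to 3′, and have the start and stop codons in capitals. NDUFB1 lies on chromosome 14 (92116122 to 92121917, minus strand), NDUFA1 on chromosome X (119871832 to 119876662, plus strand), NDUFC1 on chromosome 4 (139266880 to 139302551, minus strand) and NDUFB3 on chromosome 2 (201071433 to 201085750, plus strand). The transcripts shown encode proteins of 58, 70, 76 and 98 residues. GENCODE also gives NDUFB1 a coding sequence of 318 nucleotides, and counts per gene do not show which was read.
NDUFB1: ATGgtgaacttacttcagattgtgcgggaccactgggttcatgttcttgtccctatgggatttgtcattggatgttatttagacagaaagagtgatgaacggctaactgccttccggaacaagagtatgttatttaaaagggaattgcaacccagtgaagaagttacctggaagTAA
NDUFA1: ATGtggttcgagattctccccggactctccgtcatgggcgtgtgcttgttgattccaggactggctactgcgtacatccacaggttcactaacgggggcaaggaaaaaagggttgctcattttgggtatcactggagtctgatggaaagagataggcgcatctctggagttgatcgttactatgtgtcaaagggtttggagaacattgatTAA
NDUFC1: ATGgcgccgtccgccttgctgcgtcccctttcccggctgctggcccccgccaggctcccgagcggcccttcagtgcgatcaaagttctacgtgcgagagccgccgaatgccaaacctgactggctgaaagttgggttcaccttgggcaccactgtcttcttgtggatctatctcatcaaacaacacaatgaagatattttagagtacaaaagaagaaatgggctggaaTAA
NDUFB3: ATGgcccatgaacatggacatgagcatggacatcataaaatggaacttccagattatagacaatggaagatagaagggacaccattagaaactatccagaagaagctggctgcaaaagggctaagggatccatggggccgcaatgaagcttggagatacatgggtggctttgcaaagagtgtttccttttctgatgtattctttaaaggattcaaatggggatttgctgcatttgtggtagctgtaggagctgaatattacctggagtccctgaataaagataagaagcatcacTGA

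The first comparison asked how complex I mRNAs divide between heavy and light polysomes. Most were enriched in light polysomes and a few long ones in heavy polysomes. Of the 38 members, 24 were called toward light, 6 toward heavy and 8 were not called (edgeR quasi-likelihood test blocked by gradient, Benjamini-Hochberg adjusted p under 0.05 over 13574 genes). Of the genes tested, 29.3% were called light and 30.0% heavy. Without the block 19 were called light and 5 heavy, where 16.1% and 21.0% of genes were. With no block and without labelled knockout heavy or wild type heavy, fewer members still were called light, and fewer of all genes. The members' median log2 ratio was then -0.69 and -1.05, against -0.12 and -0.07 over all genes. In the fit with the block and without NDUFA4, the counts were 23 light and 6 heavy of 37. All 38 members passed the filter on low counts. The median fitted log2 heavy to light ratio was -0.84 over the members (-0.62 in the wild type gradient and -1.15 in the labelled knockout gradient) and -0.07 over all genes. With library totals in place of TMM, the median of all genes moved to -0.30 and that of the members to -1.07, with 25 called light and 5 heavy. Of all genes, 37.0% were then called light and 23.6% heavy. The distance between members and all genes was -0.77 under both scalings, which is no separate check. A change of scaling moves the log2 ratio of each gene by about the same amount. The split over all called genes moved with the scaling, from 50.6% to 38.9% toward heavy. A gradient is a repeat of the fraction contrast here, and the labels name no separate cultures. With 1 residual degree of freedom, p-values rest on the disagreement between these 2 gradients, taken as 1 spread trend over all genes. They do not measure how far the gradients disagree for a single gene. The gradients also differ in genotype, so this spread holds any genotype differences too.

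**Figure D1:**
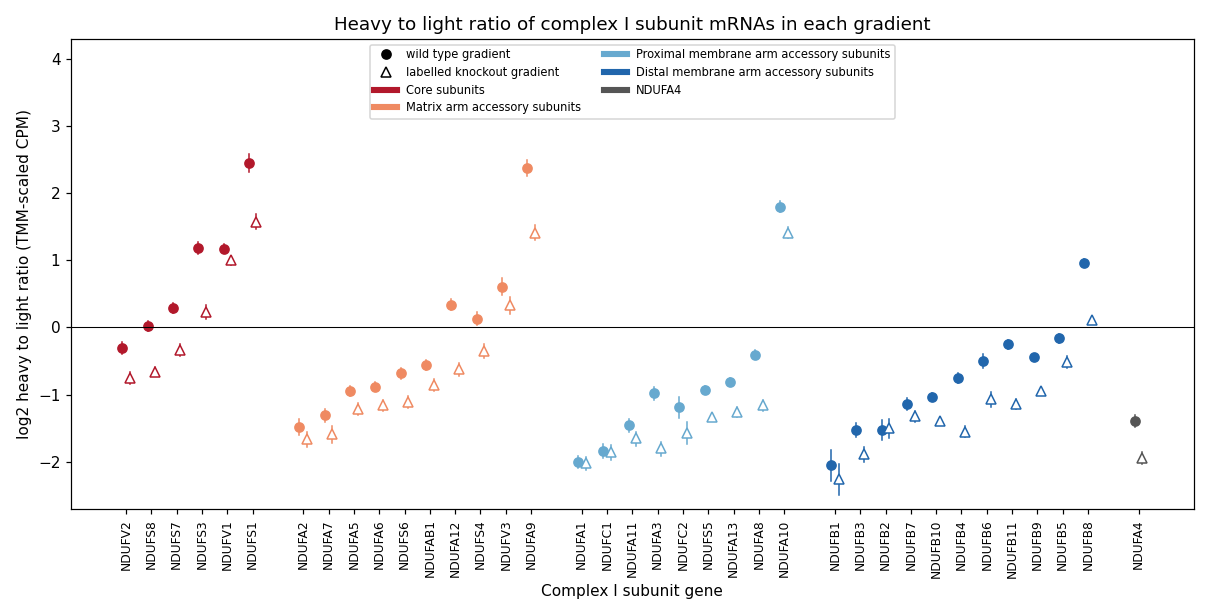
Log2 heavy to light ratio (y axis, TMM-scaled CPM) of the members reported by name (x axis), by place in the complex, with circles for the wild type gradient, open triangles for the labelled knockout gradient and bars for 95% counting intervals. Core subunits reach 2.45 (NDUFS1, wild type), the distal membrane arm goes down to -2.25 (NDUFB1, labelled knockout), and the triangle lies below the circle for each gene shown but NDUFB2.

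The core subunits hold the flavin and the iron-sulfur clusters. None of the 7 was called light, and they had a median log2 ratio of 0.71 and coding sequences of 633 to 2184 nucleotides. Of all genes with coding sequences of 600 nucleotides or more, 19.5% were called light. NDUFS1 is the largest subunit and carries iron-sulfur clusters of the NADH-oxidising module. It had 134 CPM in heavy and 24.6 in light polysomes of the wild type, and 128 and 43.0 in those of the labelled knockout. Both heavy libraries thus lay above both light ones. Its fitted log2 ratio was 2.01 (SE 0.28, edgeR adjusted p = 3.44e-11), the highest of the members.

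NDUFV1, the subunit that binds the flavin and NADH, had 333 and 285 CPM in heavy and 148 and 142 in light polysomes (log2 ratio 1.09, SE 0.30, edgeR adjusted p = 8.05e-04). Its heavy and light values did not overlap. NDUFS3, a scaffold of the ubiquinone-reducing module, had 171 CPM in heavy and 75.4 in light polysomes of the wild type, and 96.6 and 82.1 in those of the labelled knockout. Its log2 ratio was 1.18 in the wild type gradient and 0.23 in the other (fitted 0.71, SE 0.28, edgeR adjusted p = 0.021). With library totals the ratio of NDUFS3 was 0.48 (adjusted p = 0.111), and 16.0% of its exon bases are shared with PTPMT1 on the same strand.

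The shortest core subunits were not called. NDUFS7 and NDUFS8, which carry the iron-sulfur clusters next to ubiquinone, had fitted ratios of -0.02 and -0.32, and NDUFV2, partner of NDUFV1, had -0.53 (edgeR adjusted p = 0.0916). NDUFS8 had 163 CPM in heavy and 161 in light polysomes of the wild type, and 142 and 225 in those of the labelled knockout. NDUFV2 had 106 and 130, and 96.4 and 162 CPM in the same order. With TMM scaling, NDUFS8 was near balance in the wild type (0.02, counting interval -0.05 to 0.09). NDUFV2 was already higher in light polysomes there (-0.30, -0.39 to -0.22). In the labelled knockout both were higher in light polysomes. The place of 0 depends on the scaling. With library totals the fitted ratio over both gradients was -0.56 for NDUFS8 and -0.76 for NDUFV2.

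Accessory subunits of the matrix arm were called light in 6 of 10 and heavy in 1 (median -0.80). Of all genes 29.3% were called light and 30.0% heavy, and of those with coding sequences under 600 nucleotides 78.3% and 0.853%. The heavy one was NDUFA9, a nucleotide-binding protein of the short-chain dehydrogenase fold at the junction of the arms. Its levels were 172 CPM (heavy) and 33.2 (light) for the wild type, 143 and 53.6 for the labelled knockout, with no overlap between the fractions (fitted log2 ratio 1.89, SE 0.29, edgeR adjusted p = 7.76e-10). NDUFA2, NDUFA7, NDUFA5, NDUFA6 and NDUFS6 were called light with ratios from -1.57 to -0.90. The acyl carrier protein NDUFAB1, which also serves mitochondrial fatty acid synthesis, was called light at -0.71 (adjusted p = 0.0243). NDUFA12, NDUFS4 and NDUFV3 were not called, at -0.14, -0.11 and 0.47. GENCODE gives NDUFV3 a long coding sequence of 1422 nucleotides and a short one of 327, and counts per gene do not show which of them was read.

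In the proximal part of the membrane arm, 8 of 9 accessory subunits were called light and 1 heavy (median -1.38). The shares were 29.3% and 30.0% over all genes, and 78.3% and 0.853% over those with coding sequences under 600 nucleotides. NDUFA1, a single-pass membrane protein, had 221 and 240 CPM in the wild type and labelled knockout light libraries and 55.1 and 58.8 in the heavy ones. Both genotypes gave nearly the same ratio, -2.00 and -2.02 (fitted -2.02, SE 0.29, edgeR adjusted p = 1.75e-10). NDUFC1 had 166 and 158 CPM in light and 46.1 and 43.5 in heavy polysomes (-1.85, SE 0.28, adjusted p = 1.16e-09). For NDUFC1, 19.5% of the exon bases overlap NAA15 on the opposite strand. The others called light were NDUFA11, NDUFA3, NDUFC2, NDUFS5, NDUFA13 and NDUFA8, from -1.55 to -0.78.

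NDUFA10, a member of the deoxyribonucleoside kinase family, was the heavy exception in this part of the complex. It had 273 and 236 CPM in the wild type and labelled knockout heavy libraries and 78.6 and 88.7 in the light ones. The fitted ratio was 1.60 (SE 0.29, edgeR adjusted p = 4.15e-07). Its coding sequence of 1068 nucleotides is the longest of this group, whose median is 360.

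In the distal part, 9 of 11 NDUFB subunits were called light and none heavy (median -1.15). Their coding sequences have 177 to 570 nucleotides, and of all genes under 600 nucleotides 78.3% were called light and 0.853% heavy. The share of light calls thus lay near that of other short genes. NDUFB1 had 42.7 CPM in wild type light and 49.1 in labelled knockout light polysomes, and 10.3 in each heavy library. Its fitted ratio of -2.16 (SE 0.27, edgeR adjusted p = 8.81e-14) was the lowest of the members and the 78th lowest of all genes tested. NDUFB3 had 140 and 166 CPM in light and 48.7 and 44.6 in heavy polysomes (-1.71, SE 0.28, adjusted p = 1.56e-08). NDUFB2, NDUFB7, NDUFB10, NDUFB4, NDUFB6, NDUFB9 and NDUFB11 lay between -1.51 and -0.70. The call of NDUFB11 was lost with DESeq2, and that of NDUFB11 and NDUFB9 with DESeq2's size factors in edgeR. Without a filter on low counts these 2 and NDUFAB1 were not called. NDUFB5 (-0.34) and NDUFB8 (0.54) were not called. NDUFA4, the complex IV subunit, was called light at -1.67 (SE 0.29, adjusted p = 1.39e-07).

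**Figure D2:**
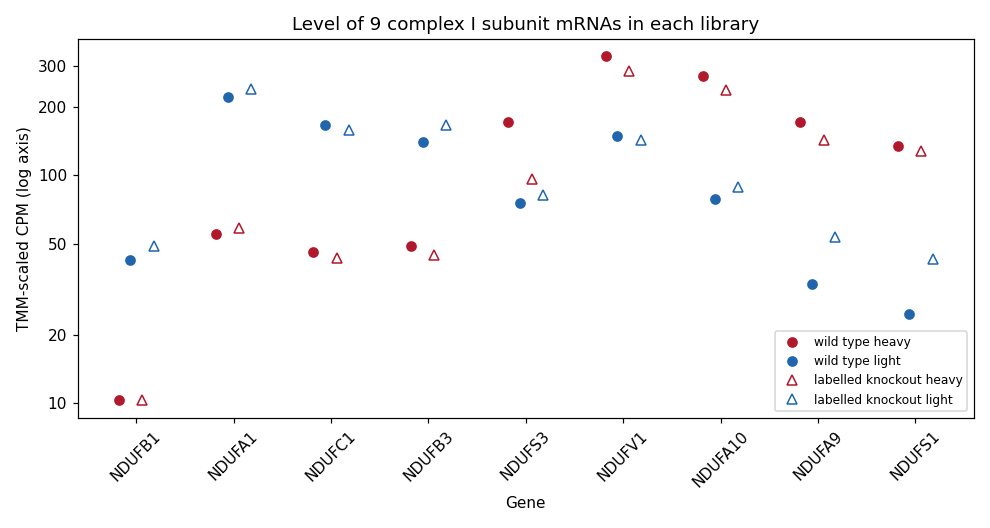
TMM-scaled CPM (y axis, log scale) of the 4 members lowest in heavy to light ratio and of 5 called heavy (x axis), 1 point per library, red for heavy and blue for light, circles for wild type and open triangles for labelled knockout. Red lies below blue for NDUFB1 to NDUFB3 and above blue from NDUFS3 to NDUFS1, with the narrowest gap at NDUFS3 in the labelled knockout (96.6 against 82.1).

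Among the members, longer coding sequences went with higher heavy to light ratios. Of 28 members with coding sequences under 600 nucleotides, 24 were called light and none heavy. Of the 1524 genes of such length, 78.3% were called light and 0.853% heavy, so the share of light members lay near that of other short genes. Of the 10 longer ones, 6 were called heavy and none light, against 36.4% heavy and 19.5% light of 11014 genes. Across the 38 members, Spearman's rho between coding length and the fitted ratio was 0.928, and Pearson's r with log2 length was 0.926. In the wild type gradient rho was 0.911 and in the labelled knockout gradient 0.926. Over 12538 genes with a coding length, rho was 0.548, 0.475 and 0.608 for the same ratios. These describe genes measured in the same 4 libraries, which are not independent replicates.

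The members were then set beside genes of the same protein length. For proteins of up to 100 residues the median log2 ratio was -1.71 over 7 members and -1.58 over 264 genes. It was -1.13 over 13 members and -1.19 over 547 genes for those above 100 and up to 150 residues, and -0.70 over 8 members and -0.85 over 744 genes above 150 and up to 200. Above 200 and up to 300 residues it was -0.17 over 4 members and -0.49 over 1727 genes. Above 300 and up to 500 residues it was 1.60 over 5 members and -0.05 over 3451 genes, of which 28.0% were called heavy. In all, 12 members lay below the median of their length class. Among the longest members the place in the class ranged widely. NDUFV2 lay above 47.7% of the genes of its class, NDUFS8 above 58.0%, NDUFV3 above 67.8% and NDUFS7 above 71.7%. Those called heavy, which the same ratio selects, lay above 84.3% (NDUFV1) to 97.9% (NDUFA9).

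Among the shorter members, NDUFB8 and NDUFA12 lay high in their classes, above 97.7% and 97.8% of the genes. NDUFB8 had 366 CPM (heavy) and 188 (light) for the wild type, 310 and 287 for the labelled knockout. A readthrough gene on the same strand covers 33.8% of its exon bases. NDUFA12 had 116, 91.2, 83.3 and 128 CPM in the same order. Its ratio in the wild type gradient was 0.34 with TMM and 0.04 (counting interval -0.05 to 0.13) with library totals, and -0.62 and -0.78 in the labelled knockout gradient. At the other end, NDUFB1 lay above 3.79% and NDUFA1 above 7.58% of the genes with up to 100 residues.

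**Figure D3:**
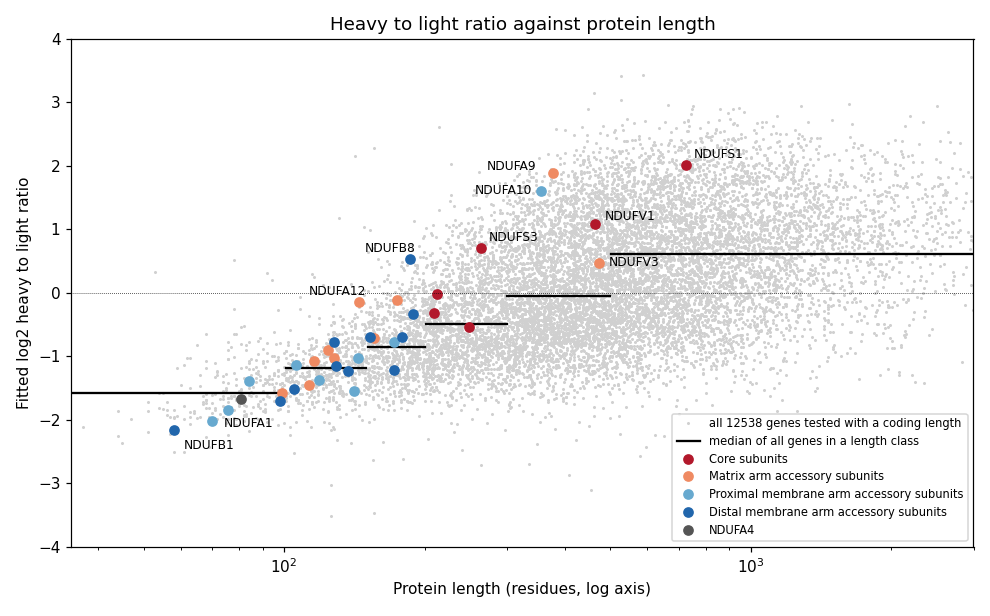
Fitted log2 heavy to light ratio (y axis) against protein length in residues (x axis, log scale), with grey points for genes tested with a coding length (109 of 12538 lie outside the axes), black lines for their medians by length class and coloured points for the members reported by name. These climb from -2.16 at 58 residues to 2.01 at 727, and those above 300 and up to 500 residues lie above the class median of -0.05.

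The assembly factors of complex I, which build the complex but are not part of it, also lay in both directions. Of 18, 8 were called light and 5 heavy (median -0.51, median coding length 816 nucleotides), where 29.3% and 30.0% of all genes were. FOXRED1, a flavin-dependent oxidoreductase-like protein, stood highest at 1.97 (edgeR adjusted p = 1.64e-11). ACAD9, of the acyl-CoA dehydrogenase family, followed at 1.74 (adjusted p = 4.53e-09) and NDUFAF1, its partner in an intermediate assembly complex, at 1.09 (adjusted p = 9.48e-05). NDUFAF2, a late assembly factor, was lowest at -1.59 (adjusted p = 1.61e-08), followed by COA1 at -1.58 (adjusted p = 7.90e-08) and the membrane protein TIMMDC1 at -1.51 (adjusted p = 9.64e-07). TIMMDC1 has a coding sequence of 858 nucleotides, longer than that of the core subunit NDUFS3 (795), which was called heavy. However, 29.4% of the exon bases of TIMMDC1 lie opposite those of CD80, and the call of NDUFS3 was lost with library totals or without the block.

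The nuclear subunits of complexes III and IV had a lower median of -1.54 (14 of 20 called light, 2 heavy), with a median coding length of 303 nucleotides against 436.5 for complex I. Their range ran from COX6C at -2.05 to the core protein UQCRC2 at 1.85. Those of ATP synthase were called light in 9 of 17 and heavy in 3 (median -0.66), from USMG5 at -2.50 to the catalytic subunit ATP5B at 2.06. Of all genes 29.3% were called light and 30.0% heavy, and of those with coding sequences under 600 nucleotides 78.3% and 0.853%. The difference between these lists and complex I was not tested.

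The genotypes were then compared fraction by fraction, with 1 library a side and therefore no replicate check. No complex I mRNA differed 2-fold or more in either fraction. This holds for 0 of 38 members in heavy polysomes, where 5.86% of 10690 genes did, and for 0 of 38 in light polysomes, where 6.96% of 10992 did. Smaller differences went opposite ways in the fractions. In heavy polysomes the labelled knockout stood at a median log2 ratio of -0.26 to the wild type, against -0.04 over all genes, and 33 of 38 members lay below 0, as 53.3% of genes did. In light polysomes the median was 0.21, against 0.00 over all genes, and 7 of 38 members lay below 0, as 49.6% of genes did.

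In heavy polysomes the 95% counting interval lay below 0 for 28 members and above 0 for 2, as it did for 39.0% and 32.3% of genes. In light polysomes it lay below 0 for 3 and above 0 for 29, against 35.7% and 37.4% of genes. NDUFS3 was the lowest in heavy polysomes at -0.82 (counting interval -0.91 to -0.74) and stood at 0.12 (0.02 to 0.22) in light ones. NDUFS1 was the highest in light polysomes at 0.80 (0.65 to 0.97) and stood at -0.07 (-0.15 to 0.01) in heavy ones. NDUFA7 was the lowest in light polysomes at -0.39 and stood at -0.67 in heavy ones, so that it was lower in both fractions. This held for 7 members, and the share of all genes lower in both was not counted. A readthrough gene on the same strand covers 32.5% of the exon bases of NDUFA7.

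**Figure D4:**
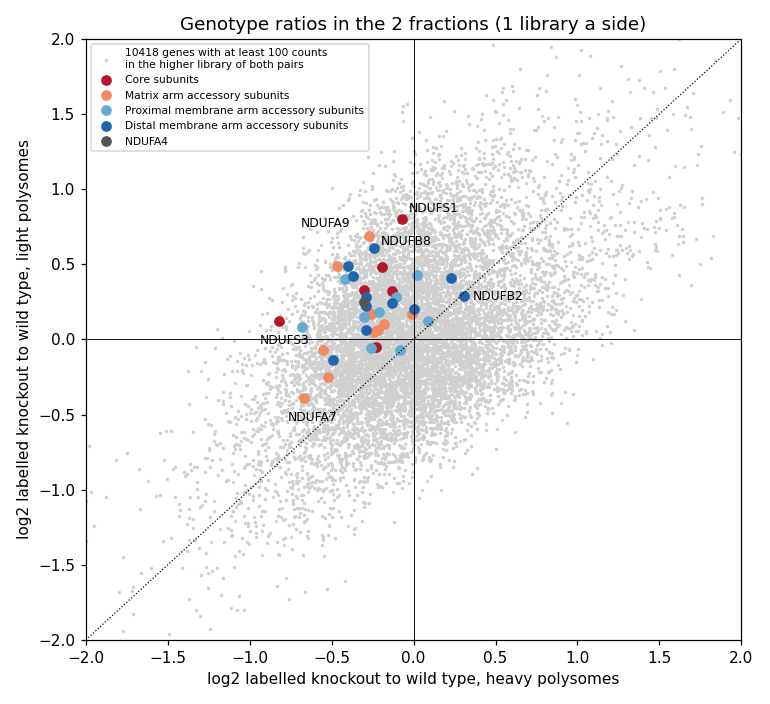
Log2 genotype ratio, labelled knockout over wild type, in heavy (x axis) and in light polysomes (y axis), with coloured points for the members reported by name and grey points for 10418 genes that reach 100 counts in the higher library of both pairs (81 lie outside the axes). The members lie within 1 log2 unit of 0 on both axes and, with the exception of NDUFB2, above the dotted diagonal of equal ratios.

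The heavy to light ratio of nearly each member was therefore lower in the labelled knockout than in the wild type gradient. The shift is the difference of these log2 ratios, labelled knockout less wild type. It was below 0 for 37 of 38 members (53.5% of 10834 genes), with a median of -0.42 against -0.05 over all genes. The exception was NDUFB2 at 0.02 (counting interval -0.18 to 0.21), 27.9% of whose exon bases lie opposite another gene's exons. No member reached a 2-fold shift, as 3.28% of genes did with a counting interval that excluded 0. The largest shifts were those of NDUFA12 (-0.97, interval -1.09 to -0.84), NDUFA9 (-0.96, -1.11 to -0.80) and NDUFS3 (-0.95, -1.08 to -0.82). The smallest beside NDUFB2 were those of NDUFC1 (-0.01) and NDUFA1 (-0.02). The core subunits had a median shift of -0.63, matrix arm accessory subunits -0.29, proximal -0.38 and distal membrane arm subunits -0.37. Across the 38 members the ratios of the 2 gradients kept their order (Spearman's rho 0.966), and 34 members lay on the same side of 0 in both (36 with library totals).

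Shifts below 0 were also the rule among abundant genes. The members had mean levels of 28.1 to 371 CPM, with 25 of them between 100 and 300. In that class the median shift was -0.45 over the members and -0.26 over 1743 genes, of which 69.5% lay below 0. Between 50 and 100 CPM it was -0.33 over 8 members and -0.08 over 2173 genes, and above 300 CPM it was -0.41 over 3 members and -0.42 over 566 genes. In all, 30 members lay below the median shift of their class of level, and 37 below that of their class of protein length. The classes of level were chosen after the shifts had been seen. Among the other lists, the median shift was -0.46 for complexes III and IV, -0.51 for ATP synthase, -0.28 for the assembly factors and -0.71 for the 7 epithelial markers. What part gradient or genotype has in the shift cannot be told apart, because each genotype had 1 gradient. The part of level was not tested.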

How the data were processed

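RNA from heavy and light polysomes was sequenced in 4 libraries, 1 per group, in 2 gradients. The authors deposited raw read counts, 1 row per gene symbol. CASAVA, STAR, HTSeq and the build hg19 are named, per the submitters' processing notes. Tool versions, gene annotation and strandedness are not stated there, so reads of overlapping genes cannot be assigned with certainty. Among the members, exon overlaps of 25% or more on the opposite strand concern NDUFS7 and NDUFB2, and on the same strand NDUFV2, NDUFA7 and NDUFB8. GENCODE lists named pseudogenes for 19 members, up to 12 each for NDUFA5 and NDUFB4, and reads shared with them may be lost or misplaced.

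Counts were fitted with edgeR 4.0.16 in R 4.3.3 (TMM, filterByExpr, quasi-likelihood test, gradient as a block, 1 residual degree of freedom, so that 1 spread trend served all genes). Standard errors come from the F statistic. DESeq2 1.42.0 was an alternative. Genotype ratios used a prior count of 2 and a minimum of 100 counts in the higher library, shifts at least 50 counts in each library, and no test. Intervals are 95%, exact binomial for ratios and normal for shifts, and cover counting error only. Of the symbols, 24414 matched GENCODE release 44 (GRCh38), 1379 through RefSeq synonyms (GRCh38.p14). Coding lengths include the stop codon and belong to the MANE Select or canonical transcript. The members and lists were chosen with earlier results of these data known. Members named with full values were the 4 highest and 4 lowest ratios, those called heavy and the 3 core subunits highest in CPM, except for 1 member, which enters the counts and medians and is otherwise not reported here. Other members were named after their values had been seen. Of the other lists, the 3 highest and 3 lowest assembly factors and the extremes of the remaining lists were named.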

Additional observations from a re-analysis of the deposited data

Results flagged for a closer look

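For 3 members the heavy to light ratio lay on opposite sides of 0 in the gradients under TMM scaling, with counting intervals that exclude 0 on each side. NDUFA12, a matrix arm accessory subunit, had a log2 ratio of 0.34 (wild type) and -0.62 (labelled knockout). NDUFS7, an iron-sulfur core subunit, had 0.29 and -0.34. NDUFS4, an accessory subunit of the matrix arm, had 0.13 and -0.35. Each side is 1 gradient, and the difference was not tested. With library totals in place of TMM none of the 3 kept a wild type interval above 0. The wild type ratios were then 0.04 for NDUFA12 (-0.05 to 0.13), -0.01 for NDUFS7 (-0.10 to 0.07) and -0.17 for NDUFS4 (-0.27 to -0.08).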

How the results depend on the processing

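The members' medians kept their direction under the alternatives run. The counts of 24 light and 6 heavy became 22 and 6 with DESeq2's size factors, 21 and 6 without a filter, 23 and 6 with DESeq2, 24 and 6 without the ribosomal RNA row, and 19 and 5 without the gradient as a replicate block, where NDUFA8, NDUFAB1, NDUFB6, NDUFB9, NDUFB11 and NDUFS3 lost their calls. Over all genes, leaving out that block moved the calls from 8051 to 5040. In the order of these settings, 27.7%, 19.6%, 20.4%, 29.3% and 16.1% of genes were called light. Toward heavy it was 30.7%, 21.9%, 28.1%, 30.0% and 21.0%. With 1 library left out in turn and no block, 11 to 19 members were called light and 4 to 6 heavy. The lowest counts of light calls were 11 without labelled knockout heavy and 14 without wild type heavy, and the median ratio ran from -1.05 to -0.69. Over all genes the median ratio in these fits ran from -0.12 to -0.02. Fewer of all genes were called in each direction than with all libraries and no block, so fewer calls were not confined to the members. In these fits the lone library of a fraction is assumed to vary like the others. With library totals alone, the median genotype ratio in light polysomes was 0.13, against -0.08 over all genes. The median shift was -0.28, against 0.09 over all genes, and NDUFV2 was called light (-0.76, adjusted p = 0.00879 in edgeR). Spearman's rho with length was 0.911 in the wild type gradient alone. NDUFS3 was not called heavy with library totals (0.48), without the block (0.77) or without wild type heavy (0.31), wild type light (0.69) or labelled knockout light (0.86). NDUFV1 was not called without wild type heavy (0.99). The cause of these changes was not tested. Leaving out a gradient leaves no residual degree of freedom and so no test.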
